A study of Mus musculus with 8 samples.

Results

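The genes described here are 8 members of the nitric oxide and cyclic GMP (cGMP) pathway, *Nos1*, *Nos2*, *Nos3*, *Nos1ap*, *Gucy1a2*, *Prkg1*, *Prkg2* and *Pde5a*, chosen by gene symbol. All 8 were found among the 22873 genes of each matrix, and they were measured in 34357 nuclei of the mouse iris. Nuclei were obtained from 6- to 8-week-old female albino wild-type mice in 8 libraries, each from 5 or 6 pooled irises to which differing amounts of ciliary body were attached. In the 2 dilated libraries the eyes had received 5% phenylephrine and 1% cyclopentolate every hour in the dark, and in the 3 constricted libraries 5% pilocarpine every hour in the light; the effect of the drugs and that of the lighting cannot be told apart. The irises were collected 6.5 hours after the start of treatment. The 3 other libraries came from untreated mice. Deposited labels place the nuclei in 10 cell types: dilator muscle, sphincter 1, sphincter 2, iris pigment epithelium (iris PE), stroma 1, stroma 2, ciliary body (CB), ciliary body epithelium (CBE), leukocytes and endothelial cells. The study, not the label, describes CB as non-epithelial.

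Nitric oxide synthases make nitric oxide from arginine. Nitric oxide activates soluble guanylyl cyclase, a dimer of an alpha and a beta subunit, and the cGMP it forms activates the cGMP-dependent protein kinases, while phosphodiesterases such as PDE5 break cGMP down. In smooth muscle the pathway is known for lowering the calcium sensitivity of contraction and relaxing the cells, and in the front of the eye for its part in blood flow and in the outflow of aqueous humour.

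For each cell type of each library the counts of unique molecular identifiers (UMIs, each marking 1 captured transcript) were added up, and levels are given as counts per 1000000 UMIs of that sum (CPM). Libraries held 5189437 to 25136427 UMIs and 1274 to 7321 nuclei. The 11606 dilator muscle nuclei supplied between 403 and 2567 nuclei per library, and the 273 endothelial nuclei between 12 and 65. The summed markers of stroma 2, leukocytes and endothelial cells stood 17.2-, 50.3- and 28.8-fold above the next cell type in untreated libraries, and those of dilator muscle (*Adra1a*, *Cit*, *Unc13c*, *Sv2b*, *Chrm2* and *Myh11*) only 1.17-fold above sphincter 2, although 5 of the 6 were highest in dilator muscle. The markers listed for sphincter 2 were not highest there (6872 CPM summed, against 12705 CPM in sphincter 1), nor were those listed for CBE (2000 CPM, against 8784 CPM in CB), and the markers of iris PE were about as high in CB (2446 CPM) as in iris PE (2466 CPM). All labels are used as deposited, with these limits. Since levels are relative to the total RNA of a cell type, lower output of a gene and higher output of others cannot be told apart.

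*Nos1*, neuronal nitric oxide synthase (chr5:117781032-117958840, plus strand, mm10), had its highest level in dilator muscle. In untreated libraries its level in dilator muscle was 218, 253 and 268 CPM (mean 246 ± 26.1, SD, n = 3), and dilator nuclei held 94.2% of the 4081 *Nos1* UMIs of these libraries. Sphincter 2 came next, at 36.6, 45.8 and 20.8 CPM (mean 34.4 ± 12.7), a mean 7.16-fold lower, and no sphincter 2 library overlapped with a dilator library. Every other cell type averaged between 3.37 CPM (stroma 1) and 21.7 CPM (endothelial cells), each next to its neighbour in order with overlapping libraries. *Nos1* was chosen as a marker of dilator muscle, and the cell types were defined on the same counts, so this order is a description with no test. At least 1 *Nos1* UMI was seen in 50.4% of untreated dilator nuclei (95% exact Clopper-Pearson interval 48.9 to 51.9, counting error only), in 9.66% of sphincter 2 nuclei (6.78 to 13.2) and in 1.99% of iris PE nuclei (1.57 to 2.49). The median depth per nucleus was 3344.5 to 3926 UMIs in untreated dilator libraries and 3015 to 3581 UMIs in iris PE. After each nucleus was thinned to 1000 UMIs the shares were 20.4%, 3.99% and 0.839%, and 0.185% in sphincter 1.

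The RefSeq start of *Nos1* on GRCm38.p6 lies inside the annotated span of the gene, and is shown because *Nos1* is the member that fell on dilation. The window runs from 250 bases before the start to 50 after it, at chr5:117866589-117866888 on the plus strand. Both strands were searched for TGACG, a short cAMP response element motif, and TGANTCA, the AP-1 motif; 20.8% and 7.81% of all 32851 promoter windows held them. The capitals mark the 1 match, to TGACG on the minus strand. A match is a description of the letters, not a binding site.

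*Nos1* start: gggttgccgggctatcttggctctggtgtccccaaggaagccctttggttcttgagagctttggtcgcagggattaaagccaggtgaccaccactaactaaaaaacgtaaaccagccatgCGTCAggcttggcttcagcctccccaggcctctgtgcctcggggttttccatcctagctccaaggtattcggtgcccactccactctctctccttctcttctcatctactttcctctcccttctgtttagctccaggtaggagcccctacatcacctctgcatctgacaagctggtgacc

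*Nos3*, the endothelial synthase (chr5:24364810-24384474, plus strand), was measured in endothelial cells at 136, 101 and 127 CPM (mean 121 ± 17.9), 42.2-fold above sphincter 2, the next in order. Sphincter 2 averaged 2.87 ± 2.49 CPM from 5 UMIs and overlapped with dilator muscle, so this fold is imprecise. The endothelial values rest on 45 UMIs in 149 untreated endothelial nuclei, of which 23.5% (16.9 to 31.1) held a *Nos3* UMI. In dilator muscle the mean was 2.48 CPM, from 31 UMIs. No *Nos3* UMI was found in untreated CB, CBE or leukocytes, which allows up to 2.61, 2.32 and 6.58 CPM (3 counts over the group). *Nos2*, the inducible synthase (chr11:78920787-78960254, plus strand), had 42 UMIs in all untreated nuclei, 11 of them in dilator muscle and 1 in leukocytes. No cell type could be ranked above another at this depth.

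*Nos1ap*, an adaptor that binds neuronal nitric oxide synthase (chr1:170302668-170589861, minus strand), was present in all 10 cell types. It was highest in CBE (838 ± 29.3 CPM), then in dilator muscle (735 ± 75.9), sphincter 2 (541 ± 31.0) and iris PE (477 ± 44.0), and none of these 4 overlapped with its neighbour in any untreated library. Sphincter 1 averaged 194 ± 23.9 CPM and could not be separated from CB (207 ± 21.3). Stroma 1 was lowest, at 24.5 ± 2.47 CPM. A *Nos1ap* UMI was found in 80.9% of dilator nuclei and in 6.19% of stroma 1 nuclei.

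*Gucy1a2*, an alpha subunit of soluble guanylyl cyclase (chr9:3532778-3894736, plus strand), was highest in CB, at 260, 234 and 348 CPM (mean 280 ± 59.7), 2.28-fold above CBE (123 ± 12.1). Dilator muscle followed at 108 ± 13.8 CPM and overlapped with CBE. Both sphincter groups were lower and overlapped with each other (sphincter 2, mean 47.1 ± 6.40 CPM; sphincter 1, mean 44.2 ± 5.53 CPM). *Gucy1a1*, the other alpha subunit of the pathway list, had another order: 120 CPM in iris PE and 81.7 CPM in sphincter 1, against 14.6 CPM in dilator muscle. *Gucy1b1*, the beta subunit that both need for activity, averaged 24.2 CPM in stroma 2 and 1.90 CPM in dilator muscle (*Gucy1b1* and *Gucy1a1* are described here with their values already seen).

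*Prkg1*, cGMP-dependent protein kinase 1 (chr19:30564489-31765033, minus strand), had its lowest level in the cells with the most *Nos1*. In dilator muscle it was 170, 113 and 107 CPM (mean 130 ± 34.5, untreated), against 6173, 4831 and 4925 CPM in CB (mean 5310 ± 749), a 40.9-fold difference of the means. Endothelial cells (2995 ± 647 CPM), stroma 1 (2020 ± 149) and stroma 2 (1880 ± 433) lay between, stroma 1 and stroma 2 overlapping. The mean was 984 ± 141 CPM in sphincter 1. In sphincter 2 it was 359 ± 65.7 CPM, and no library overlapped with sphincter 1. A *Prkg1* UMI was seen in 98.3% of CB nuclei and in 22.3% of dilator nuclei. *Prkg2*, the second kinase (chr5:98929773-99037351, minus strand), had 56 UMIs in untreated nuclei, 22 of them in stroma 2, where its level was 2.80 ± 0.557 CPM.

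*Pde5a*, which hydrolyses cGMP (chr3:122728947-122859374, plus strand), was, like *Gucy1a2* and *Prkg1*, highest in CB. Its level there was 1193, 956 and 1070 CPM (mean 1073 ± 119), 7.11-fold above stroma 2 (151 ± 33.1), while dilator muscle averaged 81.4 ± 17.5 CPM. Sphincter 2 (45.4 ± 0.762) and sphincter 1 (22.9 ± 5.92) were lower still. A *Pde5a* UMI was present in 84.4% of CB nuclei and 17.9% of dilator nuclei. The 4 markers listed for pericytes and vascular muscle (*Rgs5*, *Kcnj8*, *Abcc9* and *Notch3*), cells known for *Prkg1* and *Pde5a*, summed to 60.8 to 129 CPM in untreated CB and to 18.9 to 27.4 CPM in dilator muscle, none of them at 0; their part in the CB levels was not tested.

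**Figure D1:**
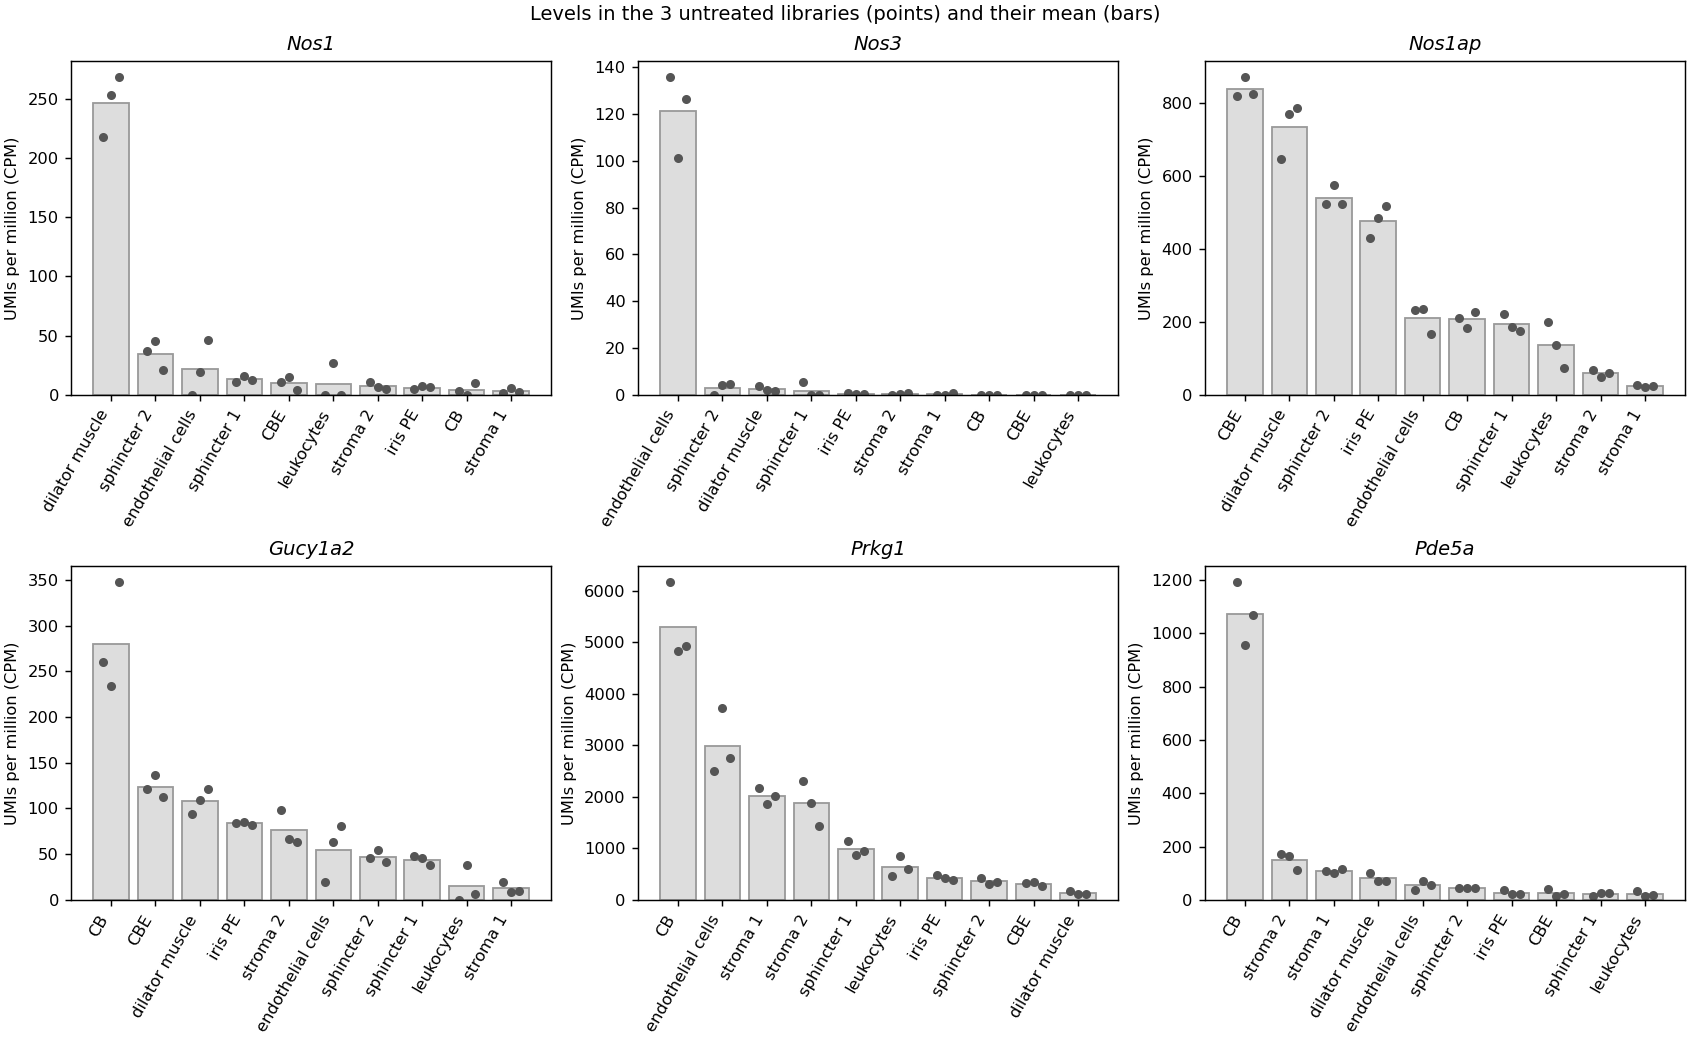
Levels of 6 members in CPM (vertical axes, linear, from 0) in the 10 cell types, ordered by mean, in untreated libraries; points are the 3 libraries and bars their mean. *Nos1* stands out in dilator muscle at 246 CPM, *Nos3* in endothelial cells at 121 CPM, and *Gucy1a2*, *Prkg1* and *Pde5a* in CB at 280, 5310 and 1073 CPM.

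Levels of different genes were compared per 100 kb of gene span, since intronic reads were counted and long genes can yield more UMIs. The exons cover 0.905% of *Prkg1* and 6.27% of *Nos1*. On this scale dilator muscle held 256 CPM per 100 kb of *Nos1ap*, 139 of *Nos1*, 62.4 of *Pde5a*, 29.8 of *Gucy1a2* and 10.8 of *Prkg1*. In CB the order was *Pde5a* (823 CPM per 100 kb), *Prkg1* (442), *Gucy1a2* (77.5), *Nos1ap* (72.1) and *Nos1* (2.44). *Nos1* stood above *Prkg1* in dilator muscle and below it in CB.

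The genes whose untreated levels over the 10 cell types were most like those of a member were ranked by Pearson's r of log2(CPM + 1), as a description with no test over 12972 genes of at least 200 UMIs. *Nos1* was most like *9630028H03Rik* (r = 0.935), *Zmat4* (0.918) and *Bnc1* (0.917), each highest in dilator muscle. *Nos1ap* was most like *Gm32743* (0.954), *Mid1* (0.941) and *AI464131* (0.938). *Gucy1a2* was followed most closely by *Fstl1* (0.960), *Rbm20* (0.9499) and *Pdcd4* (0.937), and *Pde5a* by *Ano1* (0.938), *Cdh22* (0.871) and *Prtg* (0.863), all 6 highest in CB. For *Prkg1* the closest were *Dnajb12* (0.891), *Frmd6* (0.865) and *Ap1g1* (0.850).

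The study asked how gene expression responds to a dilated or a constricted pupil. In dilator muscle, *Nos1* was lower on dilation and *Prkg1* was higher, and no member was called in any other cell type. A call needed an adjusted p under 0.05 and a log2 fold change beyond 0.6 in either direction (edgeR's quasi-likelihood test, Benjamini-Hochberg adjustment over all genes tested in the cell type). Of 41 tests of members over the 10 cell types, 2 were called for dilated against untreated libraries, where 3.34% of all tests were called. In dilator muscle itself, where 7 members were tested, 2 were called against a background of 13.3% of 15395 genes.

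*Nos1* in dilator muscle was at 218, 253 and 268 CPM in untreated libraries, at 218, 208 and 166 CPM in constricted libraries and at 139 and 94.98 CPM in dilated libraries. Both dilated libraries lay below all 6 others. The log2 fold change of dilated against untreated was -0.91 ± 0.18 (SE, 1.87-fold lower, edgeR's adjusted p = 0.00490). By CPM it was 1.57-fold lower in dilated than in untreated among libraries numbered 2 to 4 (1 library each) and 2.74-fold lower among those numbered 15 to 18 (1 dilated, 2 untreated); the labels do not say what the numbers stand for. Without dilated replicate 2 the change was -0.73 (adjusted p = 0.0663) and was no longer called. Against constricted libraries the change was -0.59 ± 0.18 (adjusted p = 0.0508), just short of both thresholds, and constricted against untreated gave -0.32 ± 0.16 (adjusted p = 1.00). The share of dilator nuclei with a *Nos1* UMI was 50.4% untreated, 42.0% constricted and 31.8% dilated, and after thinning 20.4%, 16.6% and 10.8%. The 6 summed dilator muscle markers were lower on dilation as well, at 5998 to 6891 CPM in untreated and 3528 to 3675 CPM in dilated libraries. The mean percent of mitochondrial transcripts in dilator nuclei was 0.0351 to 0.0438 untreated, 0.0308 to 0.0547 constricted and 0.0535 to 0.0885 dilated, and their part in the *Nos1* and *Prkg1* results was not tested. The fit's scaling by trimmed means placed log2 changes in dilator muscle a median 0.19 above plain CPM ratios.

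*Prkg1* in dilator muscle was at 170, 113 and 107 CPM untreated, at 153, 147 and 77.7 CPM constricted and at 256 and 173 CPM dilated. Both dilated libraries lay above the other 6, dilated replicate 2 only just above untreated replicate 1. The log2 fold change was 0.93 ± 0.25 against untreated libraries (1.90-fold, adjusted p = 0.0264) and 0.94 ± 0.25 against constricted ones (adjusted p = 0.0304), where 10.5% of genes were called. By CPM it was 1.51-fold higher in dilated libraries among those numbered 2 to 4 and 1.57-fold higher among those numbered 15 to 18. The call against untreated was lost without dilated replicate 1 (0.70, adjusted p = 0.178), without untreated replicate 2 (0.87, adjusted p = 0.104) and without untreated replicate 3 (0.82, adjusted p = 0.111). The call against constricted was lost without dilated replicate 1 (0.72, adjusted p = 0.186) and without constricted replicate 2 (1.05, adjusted p = 0.0531). The share of dilator nuclei with a *Prkg1* UMI was 22.3% untreated, 24.0% constricted and 38.8% dilated, and after thinning 9.26%, 10.0% and 16.98%.

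Since *Prkg1* was far higher in other cells, its level in dilator nuclei was set beside that in stroma 2 and in CB of the same library. In stroma 2 it was 2306, 1892 and 1441 CPM untreated, 3715, 2656 and 1329 CPM constricted and 5097 and 2715 CPM dilated (log2 fold change of dilated against untreated 1.10 ± 0.35, adjusted p = 0.188, not called). In 4 alternatives this passed: DESeq2 (adjusted p = 0.0464), no filter on low counts (2.29e-07), the library number series as a block (0.0337) and without constricted replicate 3 (0.0422). Dilator nuclei had 4.13% to 7.41% of the stroma 2 level over the 8 libraries. By condition this was 5.99% to 7.41% untreated, 4.13% to 5.85% constricted and 5.01% to 6.35% dilated, so it was not higher on dilation. Of the CB level, dilator nuclei had 2.17% to 2.75% untreated, 2.09% to 4.09% constricted and 3.94% to 5.61% dilated. Here both dilated libraries lay above every untreated one, but dilated replicate 2 (3.94%) lay below constricted replicate 1 (4.09%). For 4 markers of stroma 2 the share of the stroma 2 level was lower than for *Prkg1*: 0.193% to 0.637% for *Tfap2b*, 0.173% to 1.11% for *Pdgfra*, 0.412% to 2.70% for *Col1a2* and 1.63% to 3.50% for *Dcn*. None of the 4 was at 0 in dilator nuclei, and their summed level there was 67.7 to 83.4 CPM untreated, 48.3 to 76.9 CPM constricted and 36.9 to 57.9 CPM dilated, below every untreated library in both dilated ones. Of the 4, only *Dcn* was itself lower without overlap, at 43.2 to 61.7 CPM untreated and 20.8 to 31.6 CPM dilated. *Dcn* was lower in stroma 2 nuclei as well (1764, 1829 and 2186 CPM untreated, 1008 and 1238 CPM dilated). The levels of *Tfap2b*, *Pdgfra* and *Col1a2* in dilator nuclei overlapped between untreated and dilated libraries. CB nuclei made up 7.35% and 2.62% of the dilated libraries, 1.45% to 6.02% of the untreated and 1.36% to 6.91% of the constricted ones. Without nuclei called doublets the change of *Prkg1* in dilator muscle was 0.88 (edgeR's adjusted p = 0.0329). The part of RNA from other cell types in the dilator level of *Prkg1* was not tested.

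**Figure D2:**
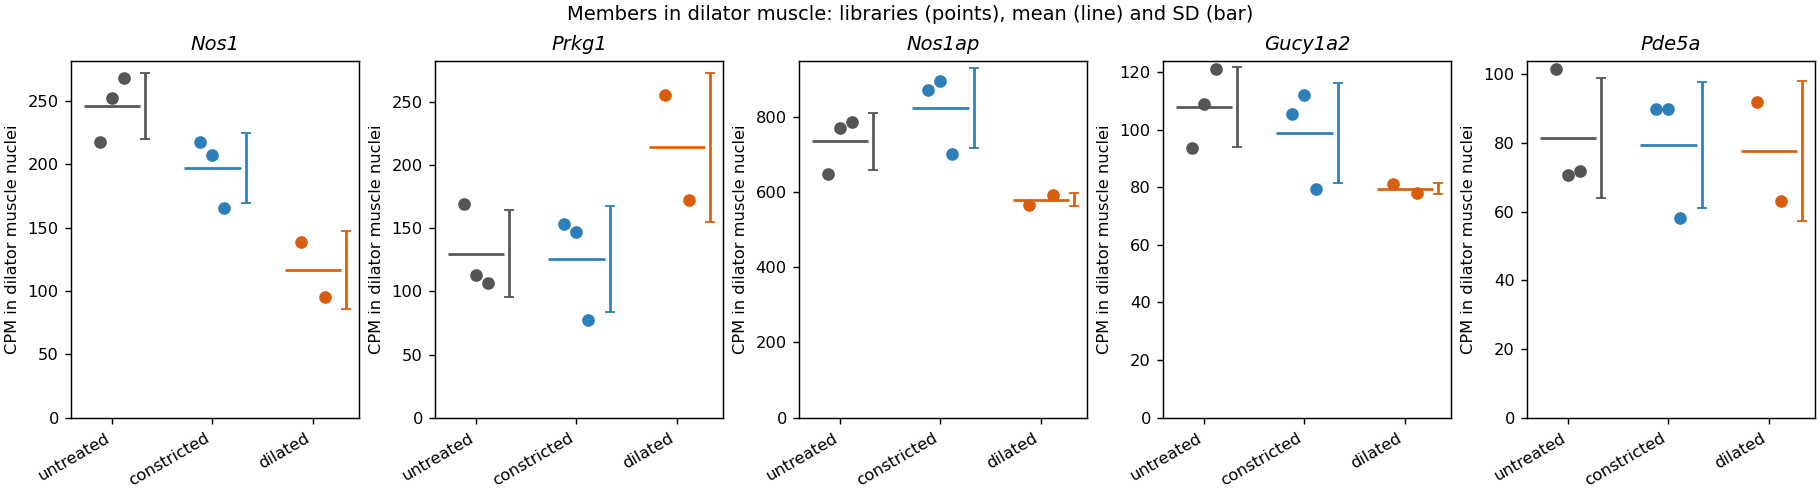
Levels of 5 members in dilator muscle nuclei (CPM, linear axes from 0) by condition; points are libraries, lines means and bars the SD. The dilated libraries lie below all others for *Nos1* (139 and 94.98 CPM) and above all others for *Prkg1* (256 and 173 CPM).

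**Figure D3:**
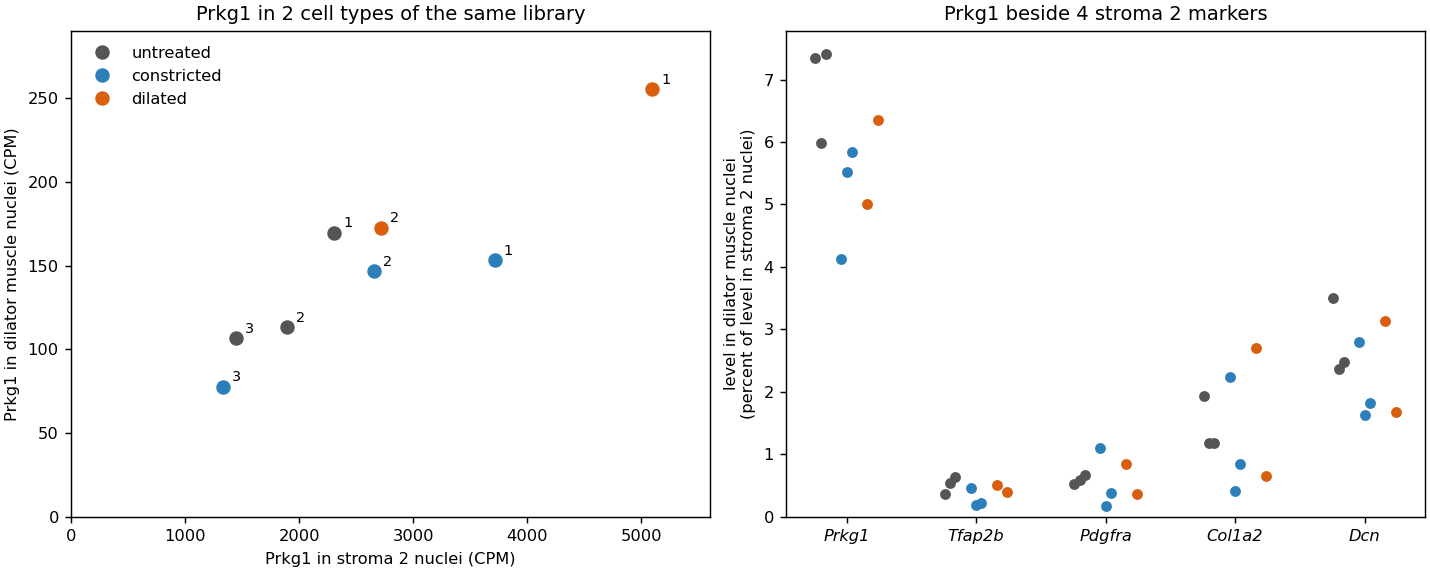
Left, *Prkg1* in dilator muscle against stroma 2 nuclei of the same library (CPM, linear axes), numbered by replicate; right, the level in dilator nuclei as a percent of that in stroma 2 nuclei, for *Prkg1* and 4 stroma 2 markers. Dilated replicate 1 is highest in both cell types (256 and 5097 CPM), and *Prkg1* stands at 4.13% to 7.41%, above *Tfap2b* at 0.193% to 0.637%.

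RefSeq lists 2 starts for *Prkg1*, shown because *Prkg1* is the member that rose on dilation. They lie on the minus strand at chr19:31664321-31664620 and chr19:31764984-31765283 (GRCm38.p6), and transcripts from different starts give kinase forms with different first parts. Neither window held TGACG or TGANTCA on either strand. Counts at the gene level do not tell which start was used.

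*Prkg1* start, inner: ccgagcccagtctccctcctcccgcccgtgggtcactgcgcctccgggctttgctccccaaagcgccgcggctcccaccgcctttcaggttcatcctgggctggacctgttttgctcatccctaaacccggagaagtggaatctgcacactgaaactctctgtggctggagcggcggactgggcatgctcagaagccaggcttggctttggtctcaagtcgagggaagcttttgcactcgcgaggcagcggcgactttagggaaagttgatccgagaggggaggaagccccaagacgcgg

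*Prkg1* start, outer: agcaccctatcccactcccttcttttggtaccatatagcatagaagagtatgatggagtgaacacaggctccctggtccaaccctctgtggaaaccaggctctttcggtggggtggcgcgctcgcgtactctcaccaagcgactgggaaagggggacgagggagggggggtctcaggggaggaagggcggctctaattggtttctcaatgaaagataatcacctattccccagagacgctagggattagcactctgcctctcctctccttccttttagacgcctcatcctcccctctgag

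The other members were not called in dilator muscle. *Nos1ap* was at 648, 769 and 787 CPM untreated and at 566 and 592 CPM dilated, below every untreated library, but its fitted change was -0.15 ± 0.17 (adjusted p = 0.604). *Gucy1a2* gave -0.27 ± 0.18 (adjusted p = 0.373), from 108 CPM untreated and 79.6 CPM dilated. *Pde5a* gave 0.14 ± 0.20 (adjusted p = 0.712), with 81.4 and 77.6 CPM. The approximate 95% intervals reached from -0.48 to 0.17 for *Nos1ap*, from -0.62 to 0.08 for *Gucy1a2* and from -0.26 to 0.54 for *Pde5a*. *Nos3* (-1.68 ± 0.64, adjusted p = 0.103) and *Nos2* (0.43 ± 0.80, adjusted p = 0.783) rested on 59 and 54 UMIs over all dilator libraries. With the library number series as a block *Nos3* was called (-1.88, adjusted p = 0.0268).

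Outside dilator muscle, the largest fitted rises of members on dilation were in stroma 2. *Pde5a* there was at 174, 165 and 113 CPM untreated and at 262 and 199 CPM dilated, with no overlap (0.67 ± 0.23, adjusted p = 0.223; with no filter on low counts, adjusted p = 0.0319). The 5 endothelial markers (*Erg*, *Icam2*, *Cldn5*, *Pecam1* and *Flt1*) summed in stroma 2 nuclei to 195 to 255 CPM untreated, 152 to 324 CPM constricted and 630 to 811 CPM dilated, none of them at 0, and the mean percent of mitochondrial transcripts there was 0.0523 to 0.0672, 0.0425 to 0.0868 and 0.0728 to 0.101. Their part in the stroma 2 values of *Prkg1* and *Pde5a* was not tested. *Nos3* in endothelial cells was at 136, 101 and 127 CPM untreated and at 128 and 185 CPM dilated (0.28 ± 0.58, adjusted p = 0.989). In CB, where 3 members peak, *Gucy1a2* gave 0.03 ± 0.23, *Prkg1* -0.22 ± 0.22 and *Pde5a* -0.06 ± 0.22. The tests of *Nos1* in iris PE, sphincter 2 and stroma 2 gave -0.21 ± 0.35, -0.54 ± 0.57 and -0.40 ± 0.68, and *Nos1* was too sparse to test elsewhere.

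**Figure D4:**
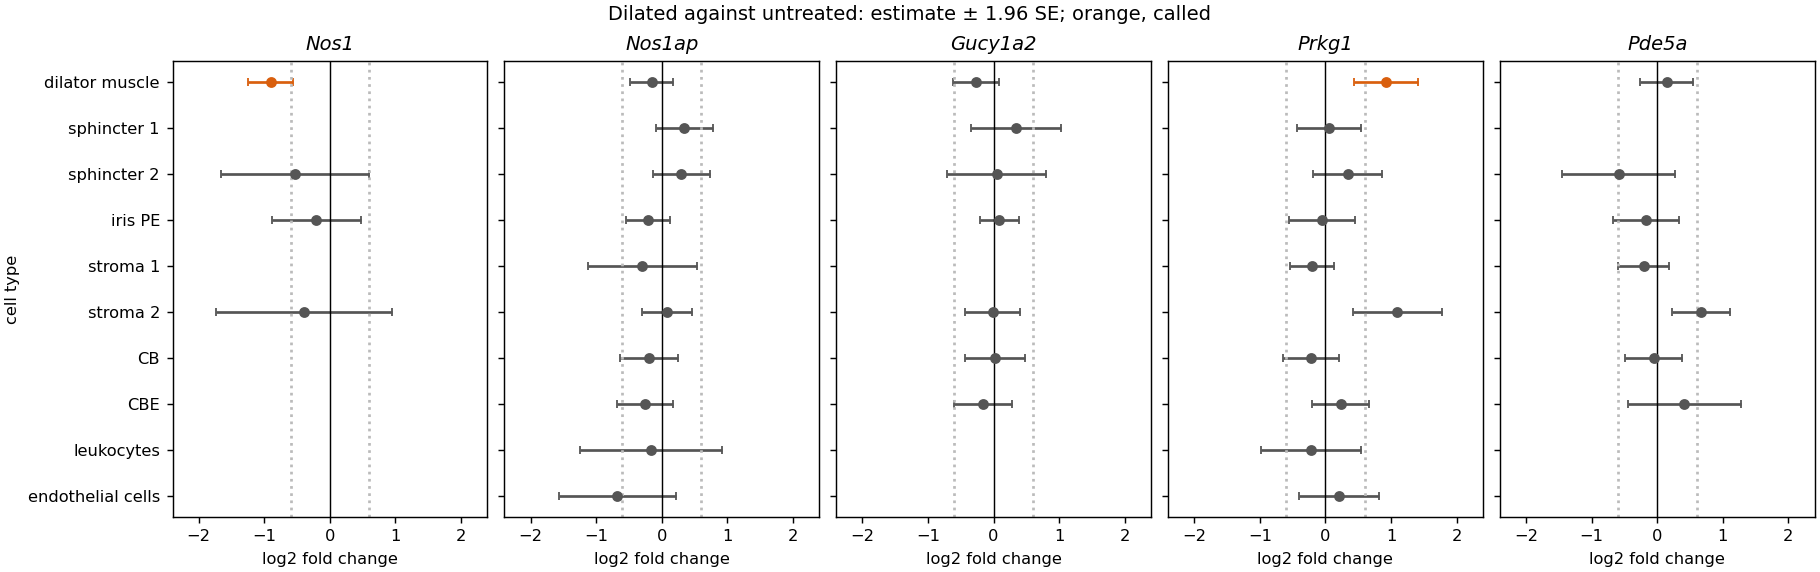
Log2 fold changes of dilated against untreated libraries (horizontal axes) for 5 members in each cell type where they could be tested; points are estimates, bars approximate 95% intervals, dotted lines the limit of 0.6, and orange marks a call. Calls appear only in dilator muscle, for *Nos1* at -0.91 and *Prkg1* at 0.93.

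Whether the response of a member differed between dilator muscle and another cell type was tested in 9 joint fits that held each library as a term. Of 49 tests, 7 passed at an adjusted p under 0.05, where 5.07% of all genes tested did. Of the 7, 6 were of *Prkg1*, each with the same dilator muscle counts, so they are not independent results. The fitted change of *Prkg1* was higher in dilator muscle than in 6 cell types, by 0.87 ± 0.19 (sphincter 1), 0.64 ± 0.18 (sphincter 2), 0.98 ± 0.12 (iris PE), 1.17 ± 0.17 (stroma 1), 1.09 ± 0.20 (CB) and 0.72 ± 0.21 (CBE) on the log2 scale, with edgeR's adjusted p between 4.27e-06 and 0.0301. Against stroma 2 the difference was -0.16 ± 0.19 (adjusted p = 0.724). The change of *Gucy1a2* was lower in dilator muscle than in iris PE (difference -0.43 ± 0.14, adjusted p = 0.0497), but 7 of 11 alternatives lost this, with values from -0.58 to -0.23 (the latter without dilated replicate 1, adjusted p = 0.545). For *Nos1*, the nearest was iris PE (-0.73 ± 0.25, adjusted p = 0.0634), and its change was not shown to differ between cell types. The differences of *Prkg1* against iris PE, stroma 1 and CB passed in all 11 alternatives. That against sphincter 1 was lost in 1 (without untreated replicate 3), that against CBE in 3 (without dilated replicate 2, untreated replicate 2 or untreated replicate 3) and that against sphincter 2 in 4 (the same 3 and without dilated replicate 1).

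For constricted against untreated libraries, 0 of 41 tests of members were called by edgeR and 0 by DESeq2, where 0.0118% of all tests were called. In edgeR 6 had an unadjusted p under 0.05. In the cell types of these 6, the same held for 451 of 7112 genes in sphincter 1 and 397 of 6691 in sphincter 2. It held for 386 of 7522 genes in CB, 554 of 8166 in CBE and 167 of 3027 in leukocytes. *Prkg1* accounted for 4 of the 6. It was at 646, 902 and 359 CPM in constricted sphincter 2 against 431, 302 and 344 CPM untreated (0.87 ± 0.24, adjusted p = 0.219), and without constricted replicate 3 the change was 1.15 (adjusted p = 0.0269). In sphincter 1 it was at 1593, 1864 and 873 CPM against 1140, 866 and 947 CPM (0.58 ± 0.23, adjusted p = 0.669), in CBE the change was 0.67 ± 0.21 (adjusted p = 0.398) and in leukocytes -1.07 ± 0.37 (adjusted p = 0.806). The others were *Nos1ap* in sphincter 2 (0.56 ± 0.20) and *Pde5a* in CB (-0.49 ± 0.20). For dilated against constricted libraries, *Prkg1* in dilator muscle was the only call of 41, beside 2.65% of all tests.

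The pathway was followed further in 5 lists of 73 other genes, 69 of them in the matrices. In dilator muscle 57 could be tested, of which 12 rose and 5 fell on dilation (13.3% of all genes called). Their median log2 fold change was 0.13, and that of all genes tested 0.02. Fewer were called elsewhere: 5 of 30 in sphincter 1 (1.95% of all genes called), 4 of 29 in sphincter 2 (2.87%), 4 of 52 in iris PE (0.595%), 2 of 30 in stroma 1 (1.17%), 3 of 52 in stroma 2 (1.73%), 2 of 31 in CB (0.0665%), 0 of 29 in CBE (0.0122%), 1 of 9 in leukocytes (1.32%) and 0 of 8 in endothelial cells (0%). In CBE and endothelial cells 3 and 1 of these had an unadjusted p under 0.05 in edgeR. Of all genes tested there, 353 of 8166 and 90 of 1352 did.

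Among genes that serve the synthases, 3 of 15 rose and 2 fell in dilator muscle, where 13.3% of all genes were called (list median -0.04, all genes 0.02). *Gch1*, the first enzyme in making the synthase cofactor tetrahydrobiopterin, rose from 58.6, 70.7 and 69.6 CPM untreated to 131 and 133 CPM dilated (1.16 ± 0.17, adjusted p = 0.000791). *Pts*, the next enzyme of that path, fell by 0.66 (SE 0.18, adjusted p = 0.0306). The arginine carriers moved apart. *Slc7a1* rose from 6.23, 6.76 and 6.17 CPM to 15.5 and 24.9 CPM (1.82 ± 0.29), and *Slc7a2* fell from 309, 249 and 262 CPM to 102 and 87.6 CPM (-1.33 ± 0.14). *Ddah1*, which degrades an endogenous synthase inhibitor, rose by 0.94 ± 0.28. The calls of *Ddah1* and *Pts* were lost in 6 and 5 of 14 alternatives, and those of *Gch1*, *Slc7a1* and *Slc7a2* in 0. The highest gene of this list per length in untreated dilator muscle and sphincter 1 was *Dynll1*, a synthase-binding dynein light chain (1674 and 2574 CPM per 100 kb), and in CB *Pts* (1562 CPM per 100 kb). *Gch1*, *Pts*, *Slc7a1*, *Slc7a2* and *Ddah1* are described after their values had been seen.

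Of the guanylyl cyclases, *Gucy2f*, known as a photoreceptor cyclase, was lower on dilation in dilator muscle (79.2, 86.1 and 59.0 CPM to 20.2 and 8.82 CPM, -2.14 ± 0.42, adjusted p = 0.00499), and it was at 19.7 CPM in constricted replicate 3. In stroma 1, where it was highest at 696 CPM, the change was -0.70 ± 0.15 (adjusted p = 0.0253), not called without dilated replicate 1 or 2 or untreated replicate 2 or 3 (adjusted p between 0.108 and 0.197). *Gucy1b1* was called higher in dilator muscle (1.59 ± 0.46, adjusted p = 0.0373), at 1.25, 2.39 and 2.06 CPM untreated and 6.71 and 4.41 CPM dilated, but 7 of 14 alternatives lost the call. *Gucy1a1* fell in sphincter 1, from 48.4, 116 and 80.3 CPM to 24.5 and 25.4 CPM (-1.77 ± 0.38, adjusted p = 0.0128), a call lost without dilated replicate 1 or 2 or untreated replicate 2 or 3 (-1.83 to -1.44; adjusted p between 0.0601 and 0.136). The highest cyclase per length was *Npr2*, a natriuretic peptide receptor, in dilator muscle (120 CPM per 100 kb), *Gucy1a1* in sphincter 1 (153) and *Gucy2e* in CB (118). Without regard to length, *Npr2* in dilator muscle (23.2 CPM) was below *Gucy2f* (74.8 CPM) and *Gucy1a2* (108 CPM). Likewise *Gucy2e* in CB (22.4 CPM, from 26 UMIs) was below *Gucy1a2* (280 CPM). *Npr3*, the receptor that clears natriuretic peptides, fell in iris PE (-1.69 ± 0.25, adjusted p = 0.00657) and, outside the naming rule, in dilator muscle (-1.66 ± 0.20). In its list the highest per length were *Furin*, which cleaves their precursors, in dilator muscle and CB (156 and 142 CPM per 100 kb) and *Nppa* in sphincter 1 (128, from 5 UMIs).

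The other phosphodiesterases that act on cGMP held the largest changes of the pathway. *Pde10a*, which hydrolyses cAMP and cGMP, rose in dilator muscle from 27.4, 17.6 and 15.8 CPM untreated to 1305 and 1338 CPM dilated (6.30 ± 0.26, adjusted p = 1.62e-07), and stood at 28.3, 19.9 and 13.3 CPM in constricted libraries. It also rose in sphincter 2 (4.72 ± 0.38), iris PE (4.49 ± 0.29), sphincter 1 (3.06 ± 0.31), stroma 2 (2.94 ± 0.49), stroma 1 (2.14 ± 0.25) and CB (2.00 ± 0.35). In stroma 2 it was at 33.8, 40.3 and 33.4 CPM untreated and at 260 and 283 CPM dilated, but also at 176, 645 and 167 CPM constricted (3.18 ± 0.47 against untreated, adjusted p = 0.0546), and constricted replicate 2 lay above both dilated libraries. In CB the dilated libraries were at 3485 and 990 CPM, and without dilated replicate 1 the change was 0.85 (adjusted p = 0.518). *Pde3b*, a cAMP phosphodiesterase that cGMP inhibits, rose in dilator muscle from 15.6, 8.45 and 6.17 CPM to 60.1 and 102 CPM (3.38 ± 0.33). Its rise was 3.38 ± 0.46 in CB, 3.37 ± 0.38 in iris PE, 2.96 ± 0.35 in sphincter 1, 1.65 ± 0.36 in sphincter 2 and 1.73 ± 0.28 in leukocytes. In sphincter 2 it was 0.85 without dilated replicate 2 (adjusted p = 0.569). *Pde1c*, a calcium-activated enzyme, rose in iris PE (0.97 ± 0.17) and in dilator muscle (0.83 ± 0.20), outside the naming rule, with 5 and 3 of 14 alternatives losing the call. It was the highest of the list per length in sphincter 1 (209 CPM per 100 kb) and CB (201). In dilator muscle this was *Pde6d* (118), which carries the family name but is not itself an enzyme that hydrolyses cGMP. Altogether 15 of 70 tests in this list were called, all of them rises, where 3.34% of all tests were called. All 15 came from *Pde10a*, *Pde3b* and *Pde1c*, counted again in each cell type of the same libraries. They are not independent results, and no other gene of the list was called.

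Among the kinase targets and other cGMP effectors, 4 of 18 rose and 1 fell in dilator muscle. There 13.3% of all genes were called (list median 0.18, all genes 0.02). The 1 that fell was *Cngb3* (-0.92 ± 0.20, outside the naming rule). *Kcnma1*, the pore of the large-conductance calcium-activated potassium channel, fell in sphincter 1 from 1538, 818 and 918 CPM to 458 and 395 CPM (-1.29 ± 0.30, adjusted p = 0.0234) and rose in sphincter 2 from 82.5, 97.8 and 91.9 CPM to 263 and 293 CPM (1.66 ± 0.25, adjusted p = 8.49e-05). *Atp2a2*, the calcium pump of the sarcoplasmic reticulum, fell in sphincter 1 (866, 855 and 818 CPM to 425 and 413 CPM) and rose in sphincter 2 (302, 331 and 317 CPM to 493 and 647 CPM). The call of *Kcnma1* in sphincter 1 was lost in 4 of 14 alternatives and those of *Atp2a2* in 5 and 3 of 14. In a joint fit of both sphincter groups, made after these values had been seen, 8 of 39 genes of the pathway and members passed, where 3.33% of all genes did. The change in sphincter 1 was lower than in sphincter 2 (difference -2.78 ± 0.26 for *Kcnma1* and -1.88 ± 0.23 for *Atp2a2*). In stroma 2, *Rgs2*, a brake on G protein signalling that the kinase activates, rose by 2.11 ± 0.32 and *Mrvi1*, a kinase substrate at the calcium store, by 1.34 ± 0.28, calls lost in 1 and 4 of 14 alternatives. The part of the endothelial markers, which were higher in dilated stroma 2 nuclei, was not tested here either. The highest effector per length was *Atp2a2* in dilator muscle (550 CPM per 100 kb), *Ppp1r12a*, the myosin phosphatase subunit, in sphincter 1 (1911) and *Rhoa* in CB (425).

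**Figure D5:**
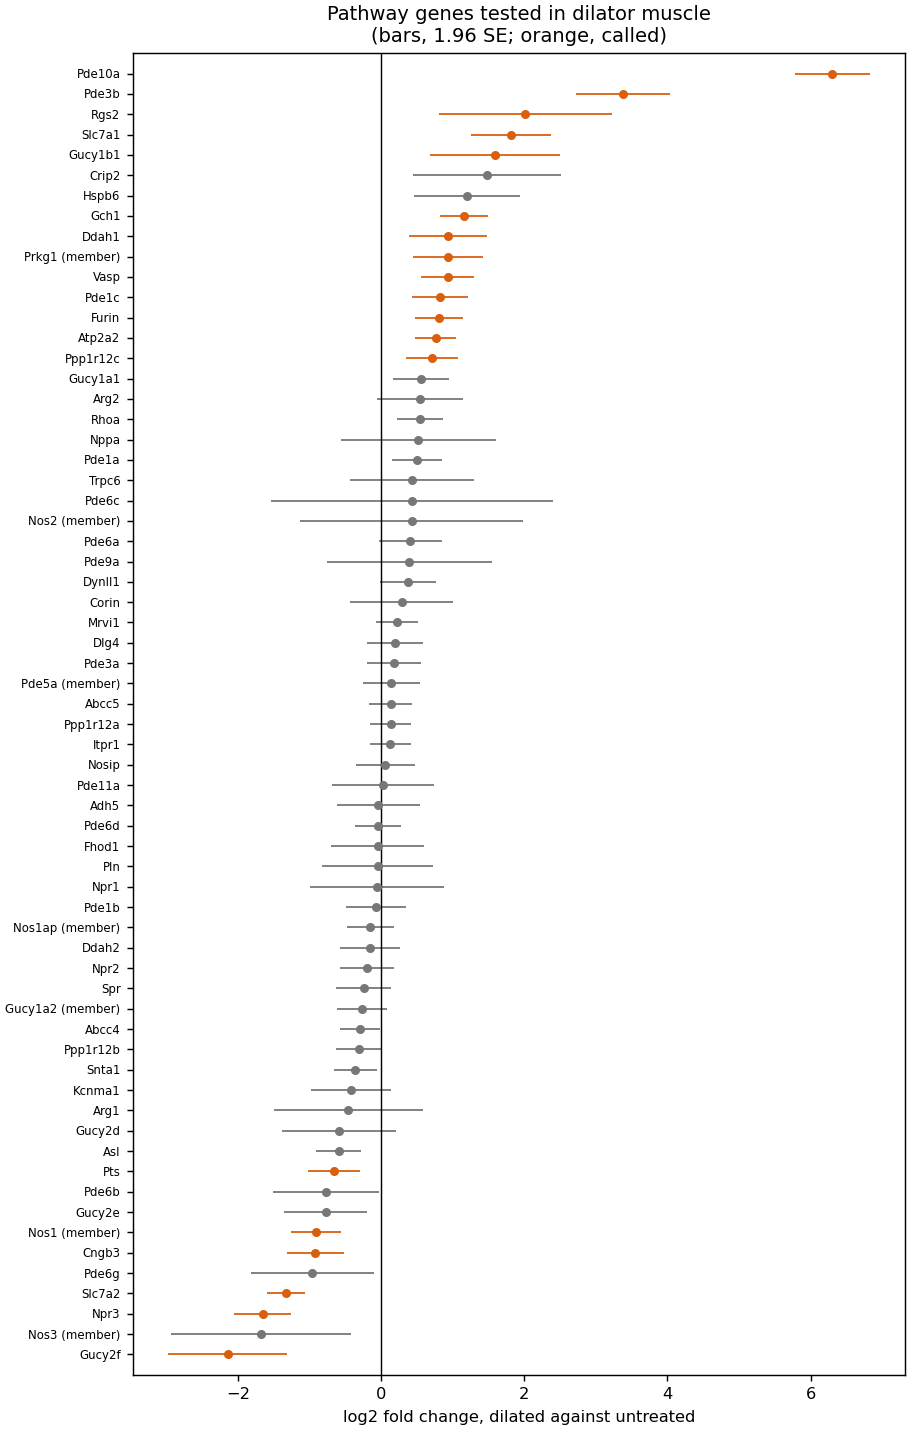
Log2 fold changes of dilated against untreated libraries (horizontal axis) for the 7 members and 57 further pathway genes tested in dilator muscle; bars are approximate 95% intervals and orange marks a call. *Pde10a* is highest at 6.30 and *Gucy2f* lowest at -2.14, with *Prkg1* at 0.93 and *Nos1* at -0.91.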

How the data were processed

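Nuclei were profiled in 8 libraries (10x Genomics Chromium v3). The authors used Cell Ranger 3.1.0 with an mm10 index that includes introns, kept nuclei with at most 1% mitochondrial transcripts and 500 to 6000 transcripts (in the files, the genes detected per nucleus keep to these limits), named the cell types, and deposited UMI counts that are not normalized, with the UMI count, the number of genes and the percent of mitochondrial transcripts of each nucleus. How strand was used in counting is not given in the sources used here, so that *Gm26995* (in *Nos1*), *Gm15587* (*Nos3*), *Spata46* and *Gm7694* (*Nos1ap*) and *Cstf2t* (*Prkg1*) may share UMIs with the member they overlap.

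The counts of each cell type were added up in each library (Python 3.11.15, numpy 2.4.6, pandas 2.3.3, scipy 1.17.1) and fitted with edgeR 4.0.16 in R 4.3.3 (glmQLFit and glmQLFTest, TMM scaling, filterByExpr), all 8 libraries in 1 fit per cell type. SEs were derived from F values. Doublets (341 nuclei, 0.993%) were called with scanpy 1.11.5 and kept; this and DESeq2 1.42.0 served as alternatives. For shares at equal depth, nuclei were thinned to 1000 UMIs and 444 shallower nuclei left out. Libraries shared at most 63 cell barcodes (4.26% of those of the smaller library), between dilated replicate 1 and untreated replicate 1. The next highest share was 0.947%, between constricted replicate 1 and untreated replicate 1. The part of shared barcodes in the results was not tested. The fits were tested on simulated data. The sphincter comparison and the ratios among library numbers were chosen after seeing the data.

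The members and gene lists were chosen with earlier results of these data known. Named genes were all members, the called pathway genes with the 3 largest changes on dilation in a cell type, the highest gene per length of each list in dilator muscle, sphincter 1 and CB, and the 3 genes most like each member of at least 200 untreated UMIs. Of the members, 5 had a promoter in the RefSeq table. The study's 5 collection batches and 2 sequencing runs are not tied to libraries in the labels.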

Additional observations from a re-analysis of the deposited data

Results flagged for a closer look

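The response to dilation differed between cell types in 7 tests of members. The fitted log2 change of *Prkg1* in dilator muscle exceeded that in sphincter 1 by 0.87, in sphincter 2 by 0.64, in iris PE by 0.98, in stroma 1 by 1.17, in CB by 1.09 and in CBE by 0.72. The change of *Gucy1a2* in dilator muscle minus that in iris PE was -0.43. Those of *Prkg1* against iris PE, stroma 1 and CB passed in all 11 alternatives, while those against sphincter 1, CBE and sphincter 2 were lost in 1, 3 and 4 of them and that of *Gucy1a2* in 7, among them the other size factors (RLE) and any constricted library left out.

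The sphincter groups also differed from each other. In the joint fit of sphincter 1 and sphincter 2, 8 of 39 genes passed, where 3.33% of all genes tested did. Of the 8, *Kcnma1*, *Atp2a2* and *Pde10a* had calls in both groups. The change in sphincter 1 minus that in sphincter 2 was -2.78 ± 0.26 for *Kcnma1* (edgeR's adjusted p = 1.60e-11), -1.88 ± 0.23 for *Atp2a2* (adjusted p = 5.31e-08) and -1.67 ± 0.50 for *Pde10a* (adjusted p = 0.0441).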

How the results depend on the processing

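Over 55 results and 726 alternatives, 614 kept direction and side of the threshold, 98 lost a call, 2 gained one, 12 counts or shares moved and 0 reversed. The number of member calls on dilation, 2, was 4 with no filter on low counts (*Prkg1* and *Pde5a* in stroma 2 added, adjusted p = 2.29e-07 and 0.0319) and 4 with the library number series as a block (*Nos3* in dilator muscle and *Prkg1* in stroma 2 added). With DESeq2 it was 3 (*Prkg1* in stroma 2 added). It was 1 to 3 when each library was left out. Against constricted libraries the count of 1 became 2 with no filter and 0 to 2 with each library left out, and constricted against untreated gave 0 to 1. The 7 differences between cell types became 3 to 8. The *Nos1* change ranged from -1.12 to -0.73 with 1 library left out; with a single dilated library left, its spread was taken from the other groups. With the replicate number as a block, 2 members were called on dilation, *Nos1* at -0.92 and *Prkg1* at 0.71, and the block changed no call of members. The labels do not say that a replicate number marks a shared batch, and not every same-numbered pair deviated together. The correlation of deviations was 0.222 to 0.423 among the replicate 1 libraries, which are also neighbours in library number (2 to 4), and 0.281 for constricted and untreated replicate 3. It was -0.0326 and -0.0154 for constricted replicate 2 (library 13) with the other replicate 2 libraries, and constricted replicate 3 correlated more with dilated replicate 2 (0.422), of nearby library number, than with untreated replicate 3. The deviations of the 2 dilated libraries from their mean are exact opposites. A correlation with 1 of them is therefore that with the other with its sign turned, not a separate result. The *Nos1* level of dilator muscle stood 2.84 log2 units above the next cell type, and 2.51 to 3.08 in the alternatives. The share of dilator nuclei with a *Nos1* UMI, 50.4%, was 20.4% after thinning to 1000 UMIs. Between conditions *Nos2* had enough UMIs to be tested only in dilator muscle and *Prkg2* in none of the 10 cell types, and the 12 to 65 endothelial nuclei per library limit *Nos3*.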
